A study of Mus musculus with 44 samples.

Results

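The Hox cluster genes comprised 39 members of the 46831 genes analysed. They were chosen by symbol alone, as each row named Hox followed by a cluster letter (a, b, c or d) and a number. Hox genes encode homeodomain transcription factors that give cells their position along the body axis and along the limb. They lie in clusters in which the order along the chromosome follows the order of their use, and genes at the same place in different clusters form a paralogous group with a shared number. In the limb, the high-numbered groups pattern the segments from the hip to the digits, and skeletal cells are known to keep part of this positional code after birth. In the GRCm38 annotation (GENCODE vM21), the HoxA cluster covered chr6:52155590-52260880 with 11 members, HoxB chr11:96194316-96368256 with 10, HoxC chr15:102921103-103036852 with 9 and HoxD chr2:74668310-74765142 with 9. Exons of 16 of the 39 members shared bases with another annotated gene, from 1.52% of the exon bases of Hoxa9 to 62.8% of those of Hoxd3. The share was 35.0% for Hoxa11, which overlaps its antisense RNA Hoxa11os. The sources used here do not state whether reads were counted by strand, so a member and its antisense partner cannot be told apart in these counts.

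The study profiled m6A, a methyl mark that the METTL3 complex places on adenosines in mRNA, by SLIM-seq, in which an antibody enriches marked RNA (IP) beside the RNA before enrichment (input). The cells were sorted from long bones of untreated C57Bl6 mice at postnatal day 3 as skeletal stem cells (SSC), pre-bone cartilage and stromal progenitors (pBCSP), BCSP, pro-chondrogenic progenitors (PCP), the THY and 6C3 subpopulations, B-cell lymphocyte stromal progenitors (BLSP) and hepatic leukemia factor expressing cells (HEC). Each of the 8 WT populations had 2 IP and 2 input libraries, and 12 more libraries, 2 IP and 2 input of each of SSC, pBCSP and BCSP, were labelled Mettl3cko. The paper gives the knockout as Mettl3 fl/fl;Col2a1-Cre and the WT control as Mettl3 fl/fl, so the floxed allele is common to both genotypes and only cells with present or past Col2a1-Cre activity can lose Mettl3. The genotype field reads wild type for all 44 libraries, and the knockout groups rest on the titles. The paper's methods name lower limbs as the tissue collected for sorting, so these are hindlimb cells. Cells were collected from several litters regardless of sex, but nothing in the labels ties a library to an animal, so p-values measure the spread between libraries.

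The 16 WT input libraries held 19795666 to 44046651 counts, the 16 WT IP libraries 16480027 to 35856651 and the libraries labelled Mettl3cko 22056571 to 35325482. Hox counts were 0.0107 to 0.0229% of a WT input library. Between 33 and 38 members had a count in each WT input library, against 26 to 35 in WT IP, 30 to 35 in Mettl3cko input and 11 to 22 in Mettl3cko IP, and the Mettl3cko IP libraries also listed fewer genes of any kind (12685 to 14415 with a count, against 16250 to 27025 in WT IP). Levels are given as counts scaled to a common library size (CPM, with TMM factors over all 44 libraries). A floor of 3 counts, the expected count up to which an expressed gene can still have a count of 0, corresponded to 0.0624 to 0.132 CPM in WT input (counting error only). Mettl3 itself stood at 7.22 to 20.3 CPM in WT input and 16.7 to 23.5 CPM in Mettl3cko input, so the gene-level counts do not show the deletion. Of the sort antigens, Thy1 was at 17.3 to 33.3 CPM in PCP, THY and BLSP and at most 0.423 CPM elsewhere, and Enpep, which encodes the 6C3 antigen, was at 40.5 to 54.5 CPM in 6C3 and HEC and at 2.17 to 8.07 CPM elsewhere.

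Most Hox mRNA in these cells came from a few members. The 15 members with the highest mean held 88.4% of the summed mean CPM over the 16 WT input libraries, and Hoxa10 alone held 20.6%, whereas 17 members had a mean below 1 CPM and 25 were counted in all 16 libraries. Per kilobase of exon, the mean level was highest for Hoxa10 (10.3 CPM per kb), followed by Hoxd9 (6.88), Hoxc10 (6.28), Hoxa11 (4.77), Hoxd8 (4.69) and Hoxa7 (4.55). The summed level of groups 9 to 13 was 41.2 to 56.4 CPM per kb in the 6 libraries of SSC, pBCSP and BCSP, 13.5 to 19.1 in the 6 of PCP, THY and BLSP and 49.6 to 57.8 in the 4 of 6C3 and HEC, so the PCP, THY and BLSP libraries lay below all others without overlap. Groups 1 to 4 showed the opposite order, with 4.58 to 11.6 CPM per kb in PCP, THY and BLSP against 2.08 to 3.502 in the stem and progenitor libraries and 1.55 to 2.92 in 6C3 and HEC. The HoxB cluster was lowest in 6C3 and HEC (0.522 to 1.64 CPM per kb, against 3.63 to 10.6 and 3.85 to 8.25 in the other sets), HoxC was highest in SSC, pBCSP and BCSP (18.9 to 30.9, against 8.85 to 13.7 and 7.19 to 10.9) and HoxD was highest in 6C3 and HEC (22.3 to 39.1, against 8.89 to 12.8 and 6.42 to 11.9). These sets of populations and groups were chosen after the values were seen and were not tested as sums. In sorted bulk cells, fewer cells that use a gene and less RNA per cell cannot be told apart.

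**Figure D1:**
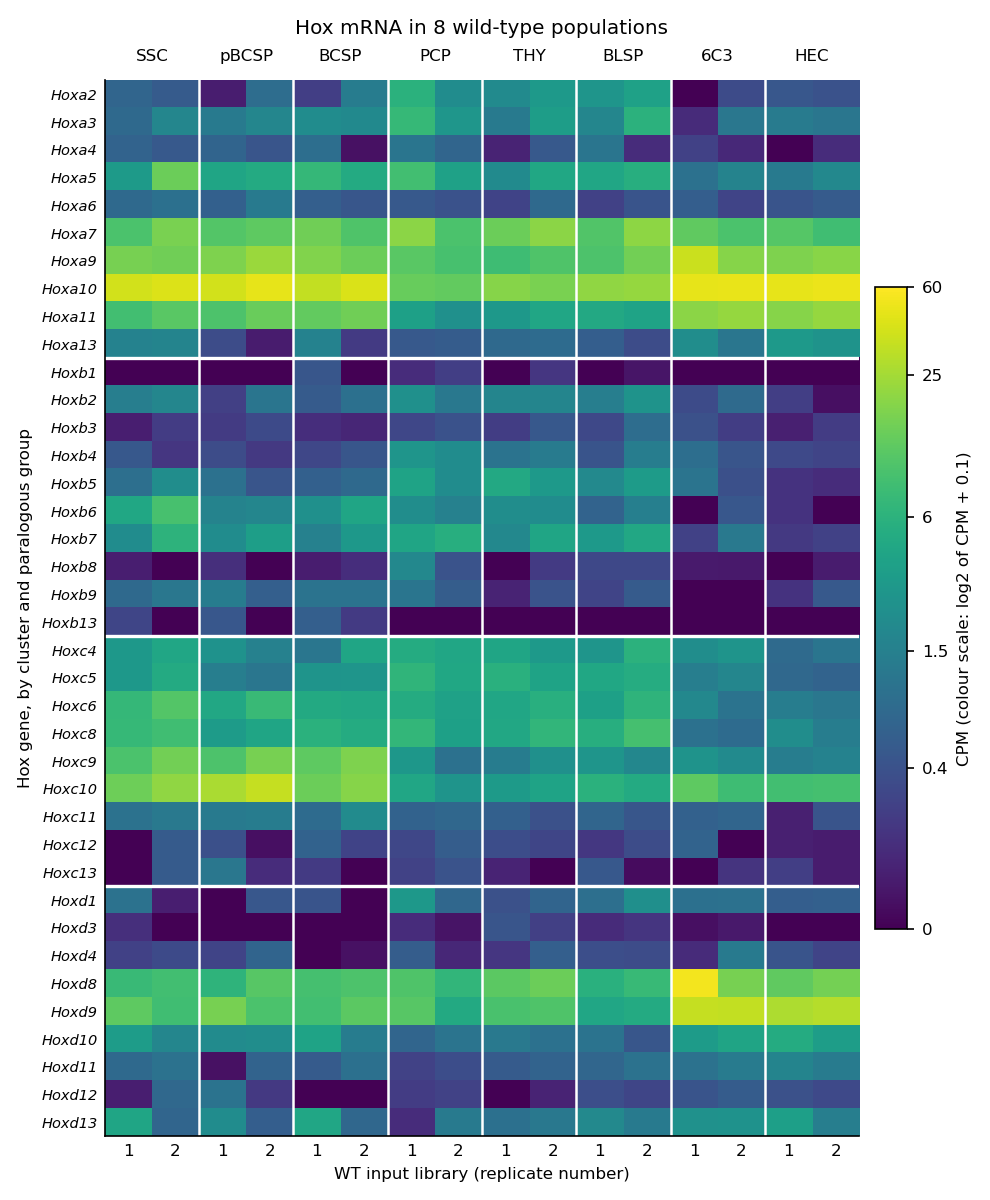
Level of 38 Hox members in the 16 WT input libraries, as log2(CPM + 0.1) in colour, with members in rows by cluster and libraries in columns by population. Hoxa10 is bright in every column, while the PCP, THY and BLSP columns are dimmer for the high-numbered members Hoxa11 and Hoxc10. Hoxc9 is dimmer in all downstream columns than in SSC, pBCSP and BCSP.

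**Figure D2:**
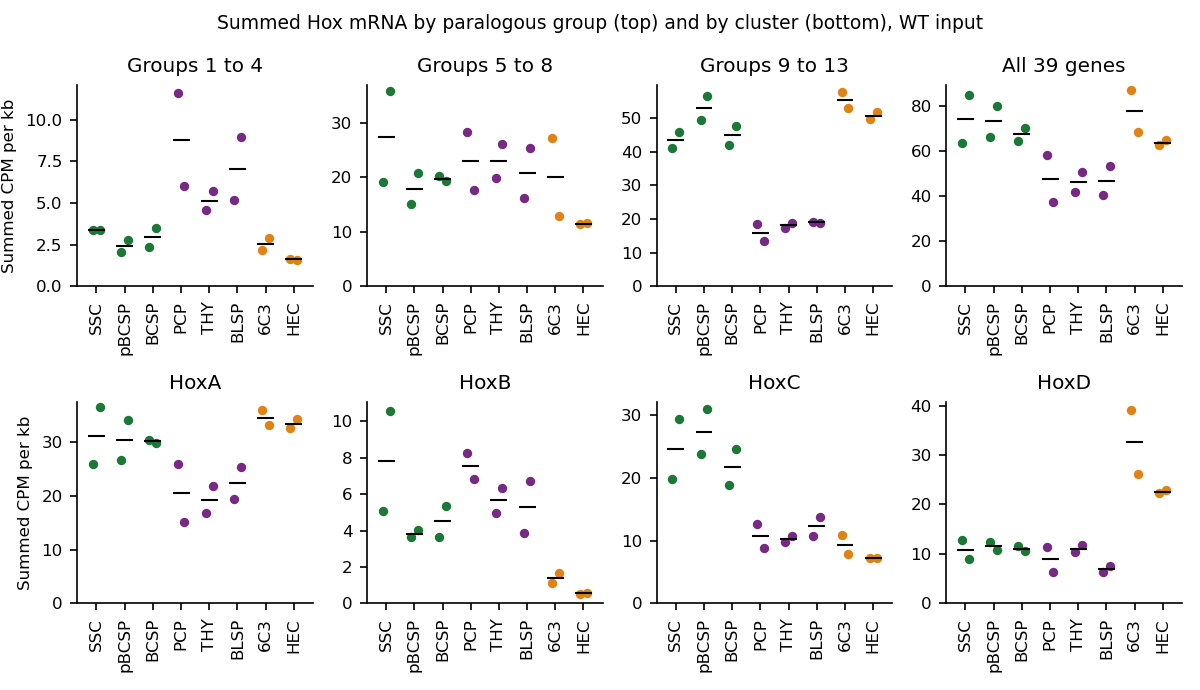
Summed CPM per kb of exon over the Hox paralogous groups and over each cluster, by WT population, with a point for each library, a bar for the mean of 2 libraries and an axis that starts at 0. Groups 9 to 13 lie at 13.5 to 19.1 in PCP, THY and BLSP and at 41.2 to 57.8 in the other 5 populations.

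Which Hox mRNAs differ anywhere in the hierarchy was tested with edgeR's quasi-likelihood F test over the 8 WT populations, with p adjusted by Benjamini-Hochberg over all 20060 genes tested. Of the 39 members, 37 passed the filter on low counts (Hoxb1 and Hoxd3 did not), and 20 were called at an adjusted p under 0.05. Of all genes tested, 40.1% were called. The called members included Hoxa2, Hoxa5, Hoxa9, Hoxa10, Hoxa11 and Hoxa13, Hoxb4, Hoxb5, Hoxb6, Hoxb7 and Hoxb9, Hoxc5, Hoxc6, Hoxc8, Hoxc9 and Hoxc10, and Hoxd8, Hoxd9 and Hoxd10, and the 5 smallest adjusted p-values belonged to groups 9 to 11. Of these calls, 11 held in each of 22 other settings, and leaving out single libraries gave 15 to 22 calls.

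Among groups 9 to 11, Hoxa10, a determinant of the upper hindlimb segment, had the highest mean level of all members. It stood at 38.7 and 42.4 CPM in SSC, 38.4 and 47.4 in pBCSP, with 33.5 and 42.0 in BCSP. Downstream, Hoxa10 stood at 13.6 and 12.9 CPM in PCP, 18.8 and 16.4 in THY, 20.8 and 21.9 in BLSP, 47.4 and 48.9 in 6C3 and 47.6 and 50.2 in HEC (edgeR adjusted p = 1.17e-05). The 10 libraries outside PCP, THY and BLSP were all above the 6 within those populations. Splits by PCP, THY and BLSP or by 6C3 and HEC, here and below, were chosen after the values were seen. The share of all genes with the same split was not counted, so no such split is shown to be particular to Hox genes. Hoxa11, which patterns the lower leg and forearm, showed the same split, at 8.59 and 11.5 CPM in SSC, 9.97 and 14 in pBCSP, with 12.8 and 14.8 in BCSP. Downstream, Hoxa11 stood at 3.73 and 2.35 CPM in PCP, 2.94 and 4.32 in THY, 4.67 and 3.96 in BLSP, 19.4 and 21.5 in 6C3 and 18.5 and 21.5 in HEC (edgeR adjusted p = 1.1e-05). The 4 libraries of 6C3 and HEC held the highest values, without overlap with the rest. Hoxd9 stood at 12.1 and 8.24 CPM in SSC, 16.1 and 9.82 in pBCSP, with 8.57 and 12 in BCSP. Downstream, Hoxd9 stood at 11.2 and 4.80 CPM in PCP, 9.56 and 10.2 in THY, 4.33 and 4.92 in BLSP, 33.9 and 33.0 in 6C3 and 26.9 and 29.6 in HEC (edgeR adjusted p = 7.12e-05). It was thus highest in 6C3 and HEC, while SSC, pBCSP and BCSP overlapped with PCP and THY. Hoxa9 stood at 16.1 and 14.7 CPM in SSC, 17.2 and 22.6 in pBCSP, with 17.9 and 14.1 in BCSP. Downstream, Hoxa9 stood at 11.5 and 9.23 CPM in PCP, 8.20 and 10.3 in THY, 9.91 and 15.4 in BLSP, 35.6 and 18.5 in 6C3 and 17.4 and 19.2 in HEC (edgeR adjusted p = 0.0151). Its pair of 6C3 libraries differed from each other by more than most population means did. Hoxd10 stood at 3.38 and 1.77 CPM in SSC, 2.07 and 2.18 in pBCSP, with 4.04 and 1.38 in BCSP. Downstream, Hoxd10 stood at 0.713 and 1.08 CPM in PCP, 1.23 and 0.999 in THY, 1.04 and 0.448 in BLSP, 3.28 and 4.14 in 6C3 and 5.04 and 3.43 in HEC (edgeR adjusted p = 0.0229). It was lowest in PCP, THY and BLSP, without overlap with the rest.

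The high-numbered members of HoxC, which are used in the hindlimb rather than the forelimb, followed another pattern. Hoxc10 stood at 14.7 and 20.9 CPM in SSC, 26.2 and 34.3 in pBCSP, with 14.1 and 18.9 in BCSP. Downstream, Hoxc10 stood at 4.30 and 2.66 CPM in PCP, 3.16 and 4.04 in THY, 5.79 and 4.88 in BLSP, 12.2 and 8.12 in 6C3 and 8.54 and 8.98 in HEC (edgeR adjusted p = 9.66e-06). Its level was highest in pBCSP. Hoxc9 stood at 9.81 and 15.2 CPM in SSC, 9.93 and 15.9 in pBCSP, with 12.3 and 17.4 in BCSP. Downstream, Hoxc9 stood at 2.83 and 0.978 CPM in PCP, 1.36 and 2.39 in THY, 2.68 and 1.83 in BLSP, 2.56 and 2.04 in 6C3 and 1.42 and 1.59 in HEC (edgeR adjusted p = 2.79e-05). All 6 stem and progenitor libraries were above all 10 downstream libraries for both. In contrast to Hoxa10 and Hoxa11, neither gene reached the stem cell level in 6C3 and HEC. Hoxc11, at 0.847 to 2.11 CPM in the stem and progenitor libraries, was likewise above the downstream range of 0.0769 to 0.749 CPM, although the F test did not call it (adjusted p = 0.282). Correlations of log2(CPM + 0.1) between the 15 members with the highest mean over the 16 libraries, which share depth and populations, are a description. The highest were Hoxa10 with Hoxa11 (Pearson's r = 0.952), Hoxc6 with Hoxc8 (0.895), Hoxc9 with Hoxc10 (0.852) and Hoxc4 with Hoxc5 (0.833). Each of these pairs lay within a cluster, as did the next, Hoxa9 with Hoxa11 (0.815). Pairs across clusters followed closely, with Hoxa11 and Hoxd10 at 0.815, Hoxa5 and Hoxb7 at 0.812 and Hoxc6 and Hoxb7 at 0.811. Other pairs within a cluster were negative, such as Hoxc10 with Hoxc5 (-0.515) and Hoxa10 with Hoxa7 (-0.480). Hoxc10 and Hoxc5 share exon bases in the annotation (8.70% of Hoxc10 and 5.37% of Hoxc5), and Hoxc5 stood high in PCP, THY and BLSP, where Hoxc10 was lowest.

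**Figure D3:**
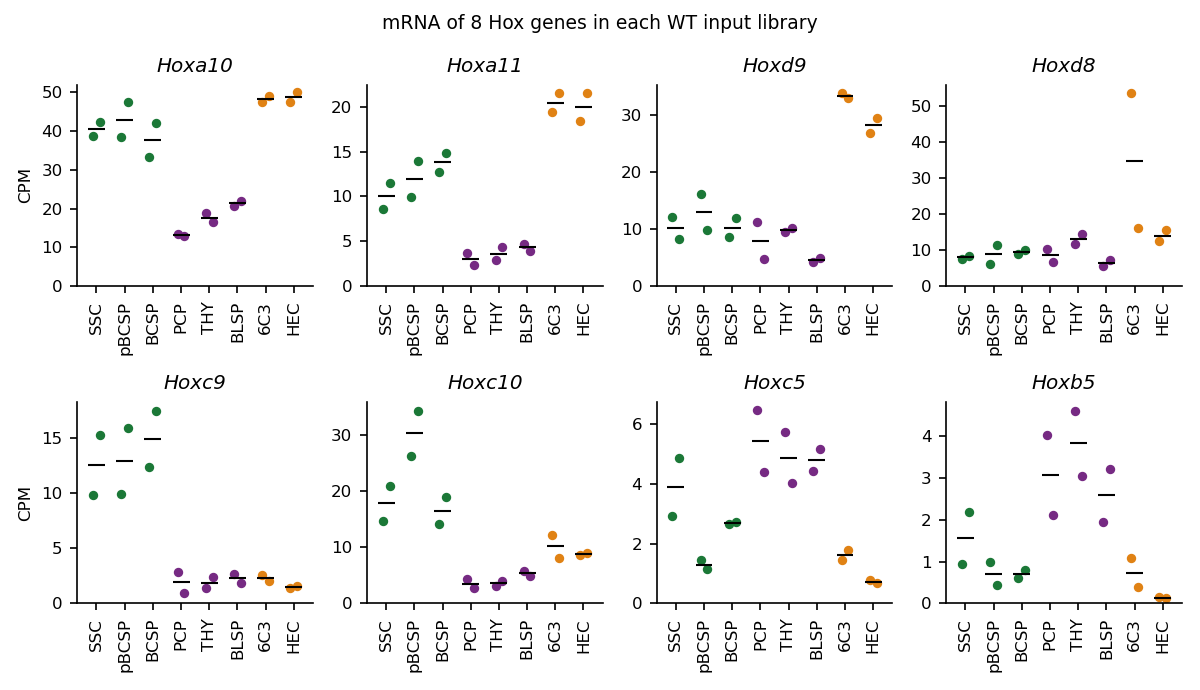
CPM of 8 Hox members in the 16 WT input libraries, by population, with a point for each library, a bar for the mean of 2 libraries and an axis from 0 in each panel. Hoxa10, Hoxa11 and Hoxd9 are high in 6C3 and HEC, Hoxc9 and Hoxc10 in SSC, pBCSP and BCSP, and Hoxc5 and Hoxb5 in PCP, THY and BLSP.

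Members of groups 5 to 8, which mainly pattern the trunk, varied in several directions. Hoxd8 stood at 7.48 and 8.45 CPM in SSC, 6.24 and 11.4 in pBCSP, with 8.92 and 10.1 in BCSP. Downstream, Hoxd8 stood at 10.3 and 6.70 CPM in PCP, 11.8 and 14.3 in THY, 5.70 and 7.29 in BLSP, 53.4 and 16.1 in 6C3 and 12.4 and 15.5 in HEC (edgeR adjusted p = 0.00218). Its highest value rested on 1 of the 6C3 libraries. Hoxa7 stood at 9.60 and 16.3 CPM in SSC, 10.8 and 12.1 in pBCSP, with 15 and 10.1 in BCSP. Downstream, Hoxa7 stood at 19.8 and 9.63 CPM in PCP, 14.3 and 19.7 in THY, 10.4 and 19.95 in BLSP, 12.6 and 9.73 in 6C3 and 11 and 8.43 in HEC (edgeR adjusted p = 0.484). Its populations overlapped. Hoxc8 stood at 7.17 and 8.35 CPM in SSC, 3.22 and 4.20 in pBCSP, with 5.80 and 5.07 in BCSP. Downstream, Hoxc8 stood at 6.73 and 3.68 CPM in PCP, 4.56 and 6.62 in THY, 5.43 and 9.02 in BLSP, 0.993 and 0.845 in 6C3 and 2.19 and 1.41 in HEC (edgeR adjusted p = 0.000626). Its 4 libraries of 6C3 and HEC were below the other 12. The same 12 against 4 order, without overlap, held for Hoxc6, which stood at 7.06 and 10.8 CPM in SSC, 4.51 and 7.58 in pBCSP, with 4.76 and 4.48 in BCSP. Downstream, Hoxc6 stood at 5.08 and 3.79 CPM in PCP, 4.34 and 5.58 in THY, 3.69 and 6.27 in BLSP, 1.87 and 1.04 in 6C3 and 1.42 and 1.16 in HEC (edgeR adjusted p = 0.00178). Hoxa5, a regulator of the neck and shoulder skeleton, stood at 3.17 and 14.1 CPM in SSC, 4.17 and 4.92 in pBCSP, with 7.04 and 4.90 in BCSP. Downstream, Hoxa5 stood at 8.52 and 3.74 CPM in PCP, 2.02 and 4.36 in THY, 4.27 and 5.48 in BLSP, 0.993 and 1.63 in 6C3 and 1.27 and 1.90 in HEC (edgeR adjusted p = 0.0278). SSC replicate 2 lay far above its partner. Hoxb7 stood at 2.16 and 6.08 CPM in SSC, 2.17 and 3.47 in pBCSP, with 1.56 and 2.93 in BCSP. Downstream, Hoxb7 stood at 4.15 and 5.43 CPM in PCP, 1.89 and 4.17 in THY, 2.99 and 4.56 in BLSP, 0.241 and 1.23 in 6C3 and 0.192 and 0.245 in HEC (edgeR adjusted p = 0.00639). Its 4 libraries of 6C3 and HEC were below the other 12. Hoxb6 stood at 4.45 and 9.34 CPM in SSC, 1.66 and 1.80 in pBCSP, with 2.38 and 4.25 in BCSP. Downstream, Hoxb6 stood at 2.18 and 1.56 CPM in PCP, 2.19 and 2.17 in THY, 0.671 and 1.49 in BLSP, 0 and 0.463 in 6C3 and 0.154 and 0 in HEC (edgeR adjusted p = 0.00442). It was highest in SSC and near the counting floor in HEC.

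Several members of groups 1 to 5 stood highest in PCP, THY and BLSP. Hoxc5 stood at 2.92 and 4.88 CPM in SSC, 1.46 and 1.14 in pBCSP, with 2.67 and 2.73 in BCSP. Downstream, Hoxc5 stood at 6.46 and 4.39 CPM in PCP, 5.74 and 4.02 in THY, 4.42 and 5.16 in BLSP, 1.44 and 1.80 in 6C3 and 0.769 and 0.674 in HEC (edgeR adjusted p = 0.000557). Among the other 10 libraries, only SSC replicate 2 reached the range of PCP, THY and BLSP. The same test called Hoxb5, which stood at 0.939 and 2.19 CPM in SSC, 0.983 and 0.442 in pBCSP, with 0.619 and 0.79 in BCSP. Downstream, Hoxb5 stood at 4.03 and 2.12 CPM in PCP, 4.604 and 3.06 in THY, 1.95 and 3.22 in BLSP, 1.08 and 0.381 in 6C3 and 0.154 and 0.123 in HEC (edgeR adjusted p = 0.00156). The 6 libraries of PCP, THY and BLSP of Hoxb5 ranged from 1.95 to 4.604 CPM, and only SSC replicate 2 among the other 10 reached that range. Hoxc4 stood at 2.92 and 4.35 CPM in SSC, 2.51 and 1.58 in pBCSP, with 1.14 and 4.25 in BCSP. Downstream, Hoxc4 stood at 5.06 and 4.31 CPM in PCP, 4.21 and 3.06 in THY, 2.68 and 6.01 in BLSP, 2.23 and 2.67 in 6C3 and 0.807 and 1.10 in HEC (edgeR adjusted p = 0.0861). Its populations overlapped. Hoxb4 stood at 0.487 and 0.177 CPM in SSC, 0.339 and 0.189 in pBCSP, with 0.293 and 0.461 in BCSP. Downstream, Hoxb4 stood at 2.73 and 2.16 CPM in PCP, 1.05 and 1.32 in THY, 0.427 and 1.41 in BLSP, 0.903 and 0.436 in 6C3 and 0.308 and 0.276 in HEC (edgeR adjusted p = 0.0198). Both PCP libraries were above all others. Hoxa2, known for its role in the branchial arches, stood at 0.696 and 0.53 CPM in SSC, 0.0678 and 0.884 in pBCSP, with 0.228 and 1.38 in BCSP. Downstream, Hoxa2 stood at 5.79 and 2.12 CPM in PCP, 2.02 and 2.97 in THY, 2.68 and 3.84 in BLSP, 0 and 0.327 in 6C3 and 0.461 and 0.398 in HEC (edgeR adjusted p = 0.0233). Its 6 PCP, THY and BLSP libraries were above the other 10. For Hoxb9 the ranges were 0.600 to 1.36 CPM in SSC, pBCSP and BCSP, 0.0877 to 1.09 in PCP, THY and BLSP and 0 to 0.490 in 6C3 and HEC. Other members were low, such as Hoxb8 (0 to 1.87 CPM over the 16 libraries), Hoxb13 (0 to 0.586), Hoxd4 (0 to 1.28) and Hoxd12 (0 to 1.05). Over the same libraries Hoxa3 ranged from 0.12 to 7.20 CPM, Hoxb2 from 0.0306 to 2.60, Hoxb3 from 0.0696 to 0.895, Hoxa6 from 0.244 to 1.26, Hoxa4 from 0 to 1.10, Hoxd11 from 0.0339 to 1.69 and Hoxd1 from 0 to 2.92, and Hoxb1, Hoxc12, Hoxc13 and Hoxd3 stayed at or below 1.15 CPM. The group 13 members of the hand and foot, Hoxa13 (0.0631 to 2.999 CPM) and Hoxd13 (0.126 to 4.30 CPM), were present at low level, and the pairs of stem and progenitor libraries disagreed strongly for Hoxd13, which stood at 4.18 and 0.707 CPM in SSC, 2.17 and 0.568 in pBCSP, with 4.30 and 0.757 in BCSP.

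Between SSC, pBCSP and BCSP, the stem and progenitor cells, and the 5 downstream populations, 11 Hox members were higher in stem and progenitor cells and 3 were lower (edgeR, adjusted p under 0.05), against 23.1% and 28.3% of all genes. The largest difference with counts on both sides was that of Hoxc9 (edgeR, log2 2.70, SE 0.24, adjusted p = 1.55e-07), followed by Hoxb9 (log2 2.57, SE 0.56, adjusted p = 0.00133), Hoxb6 (log2 2.42, SE 0.48, adjusted p = 0.000567) and Hoxc10 (log2 1.78, SE 0.16, adjusted p = 1.97e-07). Hoxc6 (log2 1.04, SE 0.22, adjusted p = 0.000994), Hoxa11 (log2 0.63, SE 0.16, adjusted p = 0.00328) and Hoxa10 (log2 0.56, SE 0.10, adjusted p = 0.000289) were higher in the same edgeR test although 6C3 and HEC lay at or above the stem cell level for the latter pair. Hoxb13, the highest-numbered gene of its cluster, had 46 counts over the 6 stem and progenitor libraries and none in the 10 downstream libraries, a level at least 31.9-fold higher (floor of 3 counts over the group). The members lower in stem and progenitor cells included Hoxb4 (edgeR, log2 -1.53, SE 0.45, adjusted p = 0.0104) and Hoxd8 (log2 -0.64, SE 0.23, adjusted p = 0.0292). The 6 stem and progenitor libraries lay above all 10 downstream libraries for 3 members (Hoxc9, Hoxc10 and Hoxc11; 9.05% of all genes did so) and below them for none (7.63%), and the median log2 difference was 0.17 over the 37 members and -0.11 over all genes.

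Of these 14 calls, 8 held under each of the 22 other settings (Hoxa10, Hoxa11, Hoxb4, Hoxb6, Hoxb9, Hoxc6, Hoxc9 and Hoxc10). Without SSC replicate 2, Hoxa5 was no longer called (log2 0.52, against 1.02), and without 6C3 replicate 1 neither was Hoxd8 (log2 -0.42). The call of Hoxc11 needed BCSP replicate 2 (log2 0.99 without it), that of Hoxc8 needed pBCSP replicate 2 (0.60), and that of Hoxb13 needed replicate 1 of SSC and of pBCSP and was not made by DESeq2. Hoxd8 was also lost without replicate 1 of BCSP, PCP, SSC or pBCSP or replicate 2 of HEC or THY (log2 -0.51 to -0.61).

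Within the stem and progenitor populations, fewer members were called. No Hox member was called between SSC and pBCSP at an adjusted p under 0.05 by edgeR (0.214% of all genes were higher in SSC and 0.533% lower), and DESeq2 called Hoxa13 and Hoxc5. At an unadjusted p under 0.05, 4 members were higher in SSC (3.48% of all genes), namely Hoxc5, Hoxa13, Hoxc8 and Hoxb6, and 2 were lower (5.39%), among them Hoxc10. Hoxa13 stood at 1.601 and 1.70 CPM in SSC and 0.339 and 0.0631 CPM in pBCSP, and Hoxc5 at 2.92 and 4.88 CPM and 1.46 and 1.14 CPM. Neither pair of ranges overlapped, which is not separate support, as these members were picked from the same libraries. Between pBCSP and BCSP, again 0 members passed by edgeR (1.06% of all genes higher in pBCSP and 0.618% lower). Here 3 members were higher in pBCSP (9.56% of all genes) and 2 lower (7.31%) at an unadjusted p. Hoxd12 was higher, with 1.05 and 0.189 CPM in pBCSP and 0 in both BCSP libraries, and was the 1 member that DESeq2 called. The others were Hoxd4 and Hoxc10, which were higher in pBCSP, and Hoxc5 and Hoxa13, which were lower.

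Set against the mean of the other 7 populations, a population had between 4 and 13 called members (edgeR, adjusted p under 0.05), 66 calls in all, in comparisons that share libraries. SSC had 6 members higher and 1 lower (all genes 11.9% and 11.8%), pBCSP 3 and 1 (9.59% and 8.38%) and BCSP 5 and 2 (12.7% and 12.8%). PCP had 8 and 4 (12.9% and 5.07%), THY 2 and 3 (10.8% and 5.75%), BLSP 5 and 4 (9.39% and 4.57%), 6C3 5 and 4 (8.31% and 3.85%) and HEC 4 and 9 (6.37% and 2.88%). The split by paralogous group, made after the values were seen, showed all 15 higher calls in PCP, THY and BLSP among groups 1 to 8 and all 11 lower calls there among groups 9 to 13. In 6C3 and HEC, 8 of 9 higher calls were in groups 9 to 13 and 11 of 13 lower calls in groups 1 to 8. Each population had 21 members tested in groups 1 to 8 and 16 in groups 9 to 13. A gene could be called in several populations. The 11 lower calls in PCP, THY and BLSP fell on Hoxa10, Hoxa11, Hoxc9, Hoxc10 and Hoxd9. The 8 higher calls of groups 9 to 13 in 6C3 and HEC fell on Hoxa9, Hoxa10, Hoxa11, Hoxa13 and Hoxd9. Calls numbered 44 without HEC replicate 2 and up to 74 without other libraries.

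Of these calls, 13 held in each of the 22 other settings. Hoxc9 was higher in SSC (edgeR, log2 1.82, SE 0.30, adjusted p = 0.000445), pBCSP (log2 1.85, SE 0.30, adjusted p = 0.000616) and BCSP (log2 2.11, SE 0.30, adjusted p = 0.000105). Hoxc10 was higher in pBCSP (edgeR, log2 1.89, SE 0.21, adjusted p = 1.84e-05) and lower in PCP (log2 -1.58, SE 0.28, adjusted p = 0.000848). Hoxa10 was lower in PCP (edgeR, log2 -1.35, SE 0.17, adjusted p = 4.49e-05) and higher in 6C3 (log2 0.75, SE 0.14, adjusted p = 0.00306). Hoxa11 was lower in PCP (edgeR, log2 -1.70, SE 0.27, adjusted p = 0.000369) and higher in 6C3 (log2 1.42, SE 0.21, adjusted p = 0.00046) and HEC (log2 1.39, SE 0.21, adjusted p = 0.000457). Hoxd9 was higher in 6C3 (edgeR, log2 1.68, SE 0.23, adjusted p = 0.00026) and HEC (log2 1.41, SE 0.23, adjusted p = 0.000983), and Hoxc8 was lower in 6C3 (log2 -2.38, SE 0.39, adjusted p = 0.00118). Among the others, a few members had no count in 1 population. Hoxb9 was at least 16.1-fold higher in the other 7 populations than in 6C3 and Hoxd12 at least 6.88-fold higher than in BCSP, while Hoxd4, with 1 count in BCSP, had a ratio of 25.9 (95% interval 4.59 to 1027, counting error only). The call of Hoxa5 in SSC (log2 1.29) turned to log2 -0.19 without SSC replicate 2.

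Other genes of the Hox system and of the limb were counted from fixed lists. TALE-class cofactors bind DNA together with Hox proteins, and all 9 listed passed the filter. In the edgeR F test, which called 40.1% of all genes, 3 were called, Meis1, Meis2 and Meis3. Between stem and progenitor and downstream populations 3 were lower and 0 higher, where 28.3% and 23.1% of all genes were. Meis3 was at 7.79 and 7.11 CPM in SSC, 11.7 and 14.1 in pBCSP, 5.63 and 13.4 in BCSP, 41.3 and 34.6 in PCP, 25.5 and 33.8 in THY, 25.2 and 29.95 in BLSP, 20.5 and 13.1 in 6C3 and 8.27 and 6.89 in HEC, and its 6 libraries of PCP, THY and BLSP were above the other 10 (stem and progenitor minus downstream, edgeR, log2 -1.19, SE 0.18, adjusted p = 4.95e-05). Pbx4 (log2 -1.42, SE 0.31, adjusted p = 0.00124) and Pknox1 (log2 -0.68, SE 0.16, adjusted p = 0.00185) were lower in the same edgeR test. Of 14 limb patterning factors, 11 were called by the F test (40.1% of all genes), with Msx1, Pitx1 and Shox2 higher in stem and progenitor cells and Hic1, Prrx1, Prrx2, Tbx2 and Tbx3 lower. Pitx1 and Tbx4 are hindlimb factors and Tbx5 a forelimb factor. Of 15 noncoding RNAs of the clusters, 11 were in the table and tested, and the F test called Hoxa11os, Hoxaas2 and Hoxb3os. Hoxa11os, antisense to Hoxa11, was at 4.28 and 4.21 CPM in SSC, 2.41 and 3.13 in pBCSP, 4.59 and 4.08 in BCSP, 1.24 and 2.10 in PCP, 0.965 and 1.76 in THY, 2.16 and 2.92 in BLSP, 8.15 and 7.66 in 6C3 and 13.6 and 11 in HEC, and like Hoxa11 it was highest in 6C3 and HEC. Of 9 genes that flank the clusters, 5 were tested and 2 called (Mtx2 and Skap2), and of the 3 Cdx factors, upstream regulators of Hox genes in the embryo, 2 were tested and 0 called by edgeR's F test.

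Markers of other cell types also differed between these sets of populations. The summed level of 6 cartilage genes was 90328 to 108712 CPM in the SSC, pBCSP and BCSP libraries, 42306 to 97974 in 6C3 and HEC and 7312 to 19660 in PCP, THY and BLSP, and so was lowest where groups 9 to 13 were lowest. The summed level of 6 bone genes was 5492 to 11551 CPM in the stem and progenitor libraries, 62338 to 98941 in PCP, THY and BLSP and 82112 to 141564 in 6C3 and HEC, and it was nearly all Col1a1. Blood genes summed to 6.19 to 18.5 CPM in the stem and progenitor libraries, 47.3 to 139 in PCP, THY and BLSP and 19.5 to 151 in 6C3 and HEC. Endothelial genes summed to 101 to 122 CPM in PCP, 8.19 to 10.7 in THY and BLSP and 1.73 to 30.8 elsewhere. Skeletal muscle genes summed to 21.9 to 54.3 CPM in the stem and progenitor libraries and 5.94 to 15.4 downstream. Of these lists, 6 of 6 cartilage, 4 of 6 bone, 1 of 10 blood, 1 of 6 endothelial and 1 of 5 muscle genes tested were higher in stem and progenitor than in downstream cells by edgeR, and 0, 1, 7, 0 and 1 were lower, where 23.1% and 28.3% of all genes were. In the bone list, Col1a1 was lower and Alpl, Bglap, Ibsp and Sp7 were higher, so the sum and most of its members moved in opposite directions. Ptprc, the CD45 antigen used to remove blood cells, had no count in the 6 stem and progenitor libraries and at most 0.817 CPM downstream, whereas the endothelial Pecam1 reached 50.9 and 41.3 CPM in PCP although the sort also removed cells with Ter119 or the endothelial antigen Tie2. Their part in the Hox differences was not tested.

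To see the sequence context in which Hox mRNA could carry m6A, the letters GGACT, the commonest core of the METTL3 target context, were searched on the transcript strand of the longest annotated coding transcript of each gene. They occurred in 34 of 39 members (87.2%) and in 87.5% of 21875 protein-coding genes, with medians of 1.07 and 1.01 per kb. Hoxa4, Hoxa11, Hoxb4 and Hoxc12 were among the members without it. Counts per gene cannot place m6A on a transcript, so a match is only a description. Windows of 25 bases from the coding sequence (GRCm38, GENCODE vM21, 5′ to 3′ on the transcript, GGACT in capitals) are shown for Hoxd8 and for 3 pairs of paralogues among the members whose IP values are described next.
Hoxd8 (chr2:74705807-74705831, + strand): ggcccggccaGGACTacttccacgc
Hoxc9 (chr15:102981678-102981702, + strand): actattacgtGGACTcgctcatctc
Hoxd9 (chr2:74698081-74698105, + strand): actactacgtGGACTcgctcatagg
Hoxa5 (chr6:52204286-52204310, - strand): caaatggcccGGACTaccagttgca
Hoxb5 (chr11:96303654-96303678, + strand): caaatggcccGGACTatcagttgct
Hoxb8 (chr11:96284278-96284302, + strand): gcacgcgctgGGACTgacagagaga
Hoxc8 (chr15:102992675-102992699, + strand): tcacgccctgGGACTgacagaaaga

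The windows of Hoxa5 and Hoxb5 were identical at 23 of 25 bases, those of Hoxb8 and Hoxc8 at 22 and those of Hoxc9 and Hoxd9 at 21, of which 5 are the letters searched for.

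A transcript was taken as m6A-tagged at a log2 ratio of IP to input above 1 with an unadjusted p under 0.05 in edgeR, the thresholds of the study, in each population apart. Hox transcripts were tagged in 12 of 228 tests of a member in a population (5.26%, 8 genes), against 11.6% of all tests of all genes. SSC had 3 tagged members of 28 tested, where 10.4% of all genes were tagged. For pBCSP this was 2 of 29 (12% of all genes), for BCSP 2 of 27 (6.67%), for PCP 1 of 35 (10.6%) and for THY 1 of 27 (12.4%). BLSP had 1 of 31 (12.4%), 6C3 1 of 27 (14.5%) and HEC 1 of 24 (13.5%). A log2 ratio below -1 at the same p was found in 11 tests (4.82%, 6 genes), against 14.5% of all tests.

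The tags with the best support were those of Hoxd8. It stood at 23.0 and 36.6 CPM in IP, against 7.48 and 8.45 CPM in input in SSC (edgeR, log2 1.996, SE 0.39, unadjusted p = 0.00292, adjusted p = 0.0418) and at 24.4 and 30.2 CPM in IP, against 12.4 and 15.5 CPM in input in HEC (edgeR, log2 1.03, SE 0.24, unadjusted p = 0.00263, adjusted p = 0.0128). In both populations the IP libraries were above the input libraries without overlap, in the same libraries that gave the tags. The SSC tag held in each of 10 other settings, while the HEC tag was lost under 4 of them, including without IP replicate 2 (log2 0.83) or input replicate 1 (log2 0.85). Hoxc8 was tagged in SSC, at 18.4 and 26.2 CPM in IP, against 7.17 and 8.35 CPM in input (edgeR, log2 1.61, SE 0.40, unadjusted p = 0.00831, adjusted p = 0.064), and not without either of the SSC input libraries (log2 1.46 without replicate 1 and 1.72 without replicate 2). Its paralogue Hoxb8 had 2 counts in the SSC input libraries and 77 in IP, a ratio of 45.9 (95% interval 12.3 to 386, counting error only), with 1.41 and 1.75 CPM in IP (edgeR, unadjusted p = 0.0235). That call was lost without either SSC input library and with the replicate number as a block.

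Hoxc9 was tagged in pBCSP, at 19.8 and 29.5 CPM in IP, against 9.93 and 15.9 CPM in input (edgeR, log2 1.01, SE 0.38, unadjusted p = 0.0412, adjusted p = 0.124), and in BCSP, at 25.9 and 38.8 CPM in IP, against 12.3 and 17.4 CPM in input (edgeR, log2 1.16, SE 0.39, unadjusted p = 0.024, adjusted p = 0.133). The ratios lay near the threshold, and leaving out IP replicate 2 or input replicate 1 brought them to log2 0.67 and 0.69 in pBCSP and to 0.84 and 0.91 in BCSP. With no filter on low counts the pBCSP ratio was log2 0.996, and the call was lost. Hoxa13 was tagged in pBCSP, at 2.34 and 2.90 CPM in IP, against 0.339 and 0.0631 CPM in input (edgeR, log2 3.77, SE 1.19, unadjusted p = 0.0218, adjusted p = 0.08), and in 6C3, at 5.77 and 5.76 CPM in IP, against 2.23 and 1.14 CPM in input (edgeR, log2 1.77, SE 0.58, unadjusted p = 0.0161, adjusted p = 0.0583). Both calls were lost without input replicate 2 (log2 2.999 and 1.303). Hoxb5 was tagged in BCSP, at 1.61 and 11.1 CPM in IP, against 0.619 and 0.79 CPM in input, and in PCP, at 14.1 and 6.47 CPM in IP, against 4.03 and 2.12 CPM in input (edgeR, unadjusted p = 0.039 and 0.027). The BCSP value rested on IP replicate 2 (log2 3.21, and 1.23 without it), and the call was also lost without either BCSP input library and with the block. The PCP call was lost without IP replicate 1 (log2 0.96) or input replicate 2 (1.25). Hoxa5 in THY (7.41 and 8.52 CPM in IP, against 2.02 and 4.36 CPM in input; edgeR, unadjusted p = 0.0403) and Hoxc10 in BLSP (10.2 and 12.2 CPM in IP, against 5.79 and 4.88 CPM in input; unadjusted p = 0.0173) were tagged at log2 1.34 and 1.003. Leaving out THY input replicate 1 ended the call of Hoxa5 (log2 0.90), and leaving out IP replicate 2 or either input library of BLSP ended that of Hoxc10 (log2 0.80, 1.06 and 0.77). Both calls were also lost with library size alone (log2 1.196 and 0.925) and with no filter on low counts (1.16 and 0.88).

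Lower values in IP than in input were found for Hoxd9 and Hoxa11. Hoxd9 stood at 4.06 and 2.23 CPM in IP, against 9.56 and 10.2 CPM in input in THY, 13.4 and 13.3 CPM in IP, against 33.9 and 33.0 CPM in input in 6C3 and 14.4 and 8.15 CPM in IP, against 26.9 and 29.6 CPM in input in HEC (edgeR, log2 -1.63, -1.32 and -1.26, adjusted p = 0.0433, 0.0118 and 0.014). Hoxd9 and Hoxc9, whose windows shown above were identical at 21 of 25 bases, lay on opposite sides of the input, in different populations. Hoxa11 stood at 1.09 and 1.11 CPM in IP, against 4.67 and 3.96 CPM in input in BLSP (edgeR, log2 -2.04, SE 0.52, unadjusted p = 0.00723, adjusted p = 0.0322), and its log2 ratio was -1.28 in pBCSP and -1.67 in BCSP (edgeR, unadjusted p = 0.0422 and 0.02). Hoxc4 in pBCSP (log2 -4.53) and Hoxc5 in BLSP (-1.60) were also lower in IP. Hoxd1 had no IP count in BLSP and HEC, at least 31.1-fold and 9.63-fold lower than input.

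Whether the ratio itself differed among populations was tested as the interaction of library type and population. Of 38 members tested, 0 were called by edgeR at an adjusted p (0.485% of all genes) and 0 at an unadjusted p under 0.05 (7.97%), and 0 by DESeq2, so no Hox tag was shown to be particular to a population. In simulated data with a changed ratio in HEC, edgeR recovered 13% of 2-fold and 34% of 4-fold changes at an unadjusted p under 0.05. At an adjusted p it recovered 0% and 9%, so differences among populations could be missed. Of 18 members tested in all 8 populations, the fitted ratio was above 1-fold in each for Hoxa5 and Hoxd13 and below in each for Hoxa9, Hoxa11 and Hoxc4, with median log2 ratios of 0.76, 1.10, -0.21, -0.95 and -1.08. Over these 18 members, Spearman's rho between the median ratio and GGACT per kb was -0.232, given as a description. Of the TALE cofactors, Pbx2 was tagged in 6 of 8 populations.

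**Figure D4:**
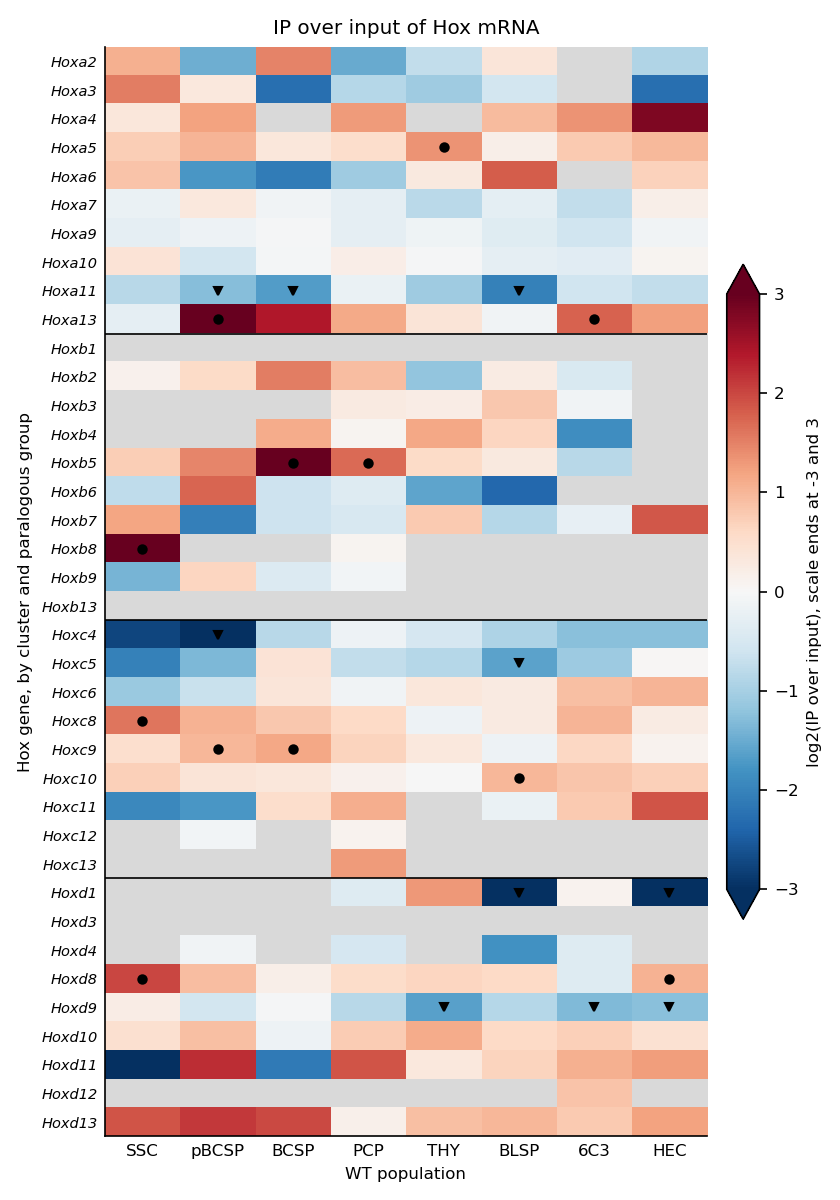
Fitted log2 ratio of IP to input for 38 Hox members (rows) in each WT population (columns), with colour ends at -3 and 3, dots for tags, triangles for log2 below -1 at an unadjusted p under 0.05 and grey where a member did not pass the filter. The 12 dots are spread over 8 genes with at most 3 in a column, and the triangles lie mainly on Hoxa11 and Hoxd9.

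The change of Hox mRNA in libraries labelled Mettl3cko was compared with WT in each of SSC, pBCSP and BCSP, at the thresholds of the study (log2 beyond 0.5 and unadjusted p under 0.05, edgeR). In SSC, 0 of 30 members tested were higher and 3 lower (all genes 6.96% and 7.07%). In pBCSP, 1 of 32 was higher and 2 lower (3.88% and 4.48%), and in BCSP, 0 of 31 were higher and 2 lower (7.22% and 5.72%). No member, and no gene at all, passed an adjusted p under 0.05. SSC had a median log2 change of -0.32 over members and -0.02 over all genes, pBCSP of -0.18 and -0.02, and BCSP of -0.53 and -0.01. The WT libraries are those of the comparisons above.

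Hoxa10, Hoxc10, Hoxc9 and Hoxa11, abundant members of groups 9 to 11, were each called lower in 1 of the 3 populations, and Hoxd9 and Hoxa9 in none. In SSC, Hoxa10 stood at 27.0 and 24.4 CPM in Mettl3cko, against 38.7 and 42.4 CPM in WT (edgeR, log2 -0.65, SE 0.21, unadjusted p = 0.0175, adjusted p = 0.235). Hoxd8 stood at 3.40 and 4.07 CPM in Mettl3cko, against 7.48 and 8.45 CPM in WT (edgeR, log2 -1.09, SE 0.42, unadjusted p = 0.0338, adjusted p = 0.297), and Hoxc5 at 1.16 and 0.763 CPM in Mettl3cko, against 2.92 and 4.88 CPM in WT (edgeR, log2 -2.02, SE 0.69, unadjusted p = 0.0212, adjusted p = 0.253). The pairs of libraries did not overlap for any of these, which is not separate support, as these members were picked from the same libraries. In pBCSP, Hoxc10 stood at 12.9 and 17.8 CPM in Mettl3cko, against 26.2 and 34.3 CPM in WT (edgeR, log2 -0.97, SE 0.32, unadjusted p = 0.0239, adjusted p = 0.569), and Hoxa4, with no count in Mettl3cko and 0.678 and 0.442 CPM in WT, was at least 11.98-fold lower. Hoxd13 was the 1 member that was higher, at 6.87 and 6.74 CPM in Mettl3cko, against 2.17 and 0.568 CPM in WT (edgeR, log2 2.34, SE 0.77, unadjusted p = 0.0238, adjusted p = 0.569). Hoxd13 stood at 5.17 to 7.68 CPM in all 6 Mettl3cko input libraries and at 0.568 to 4.30 CPM in the 6 WT libraries of these populations. That separation was looked at after the call, was not tested over the 3 populations together, and its share over all genes was not counted. At these thresholds Hoxd13 was called in pBCSP and not in SSC or BCSP. In BCSP, Hoxc9 stood at 5.02 and 6.72 CPM in Mettl3cko, against 12.3 and 17.4 CPM in WT (edgeR, log2 -1.34, SE 0.40, unadjusted p = 0.0109, adjusted p = 0.273) and Hoxa11 at 5.67 and 8.41 CPM in Mettl3cko, against 12.8 and 14.8 CPM in WT (edgeR, log2 -0.97, SE 0.39, unadjusted p = 0.0392, adjusted p = 0.358). Neither pair overlapped.

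The counts depended on single libraries. Without WT replicate 2, 0 members were called in SSC, in pBCSP and in BCSP. Without Mettl3cko replicate 1 or 2, SSC had 5 or 7 calls, and without Mettl3cko replicate 2, pBCSP had 10. Hoxa10 was also lost without WT replicate 1 (log2 -0.72) or Mettl3cko replicate 2 (-0.60), Hoxd8 without replicate 1 of either genotype (-1.17 without WT and -0.94 without Mettl3cko), Hoxc10 without Mettl3cko replicate 1 (-0.76) and Hoxa11 without replicate 1 of either genotype (-1.08 without WT and -0.73 without Mettl3cko). Hoxa4 was lost with the replicate number as a block. A test of genotype by population, added after these comparisons were seen, called 0 of 35 members by edgeR at an adjusted p and 0 at an unadjusted p under 0.05 (4.5% of all genes), so no change was shown to differ between the populations. Among the cofactors, Pknox1 was higher in Mettl3cko SSC and BCSP and Pknox2 lower in pBCSP at the thresholds of the study.

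The change of the ratio of IP to input with genotype was tested as an interaction in edgeR, called at an unadjusted p under 0.05. In SSC, 1 of 31 members had a higher ratio in Mettl3cko and 6 a lower one (all genes 3.26% and 11.3%). In pBCSP, 0 of 34 were higher and 3 lower (2.06% and 9.87%), and in BCSP, 1 of 31 was higher and 2 lower (2.49% and 7.82%). None passed an adjusted p, nor did any other gene. In simulated SSC data, edgeR recovered 0% of 2-fold and of 4-fold ratio changes at an adjusted p, so that result cannot show that ratios were unchanged. With the replicate number as a block, calls numbered 2 in SSC (Hoxa3 and Hoxa10), 2 in pBCSP (Hoxa7 and Hoxa13) and 0 in BCSP. SSC had a median log2 change of the ratio of -1.25 over members and -0.16 over all genes, pBCSP of -1.59 and -0.26, and BCSP of -0.15 and -0.10.

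Hoxa10, the most abundant member, stood in SSC at 4.68 and 0.307 CPM in Mettl3cko IP, against 47.6 and 52.8 CPM in WT IP, beside 27.0 and 24.4 CPM and 38.7 and 42.4 CPM in the inputs (edgeR, log2 -3.64, SE 1.45, unadjusted p = 0.0396, adjusted p = 0.317). Hoxa7 in pBCSP stood at 0 and 0.3 CPM in Mettl3cko IP, against 9.28 and 17.6 CPM in WT IP (edgeR, log2 -6.14, SE 1.89, unadjusted p = 0.013, adjusted p = 0.266). The other lower members had no IP count in either Mettl3cko library, so that only a bound can be given. In SSC the ratio was at least 70.4-fold lower for Hoxa3, 29.8-fold for Hoxa2, 28.6-fold for Hoxb2, 18.2-fold for Hoxb5 and 5.50-fold for Hoxc11. In pBCSP it was at least 9.83-fold lower for Hoxb7, and in BCSP at least 46.5-fold for Hoxb2 and 35.5-fold for Hoxb7. These bounds cover counting error only and take the WT ratio without its error. The Mettl3cko IP libraries varied by far more than counting error, as for Hoxc8 in SSC, with 400 and 0 counts. A smaller fall in the ratio, or no fall, is therefore not excluded. No fold is given for Hoxa13 in pBCSP, which had no Mettl3cko IP count against 2.34 and 2.90 CPM in WT IP, because its WT input held 10 and 2 counts (0.339 and 0.0631 CPM, against 1.03 and 2.41 CPM in Mettl3cko input). Hoxd11 went the other way, at 9.16 and 16.5 CPM in Mettl3cko IP, against 0.201 and 0 CPM in WT IP in SSC (edgeR, log2 5.86, SE 2.21, unadjusted p = 0.0314, adjusted p = 0.287) and 10.1 and 10.2 CPM in Mettl3cko IP, against 0.263 and 0.0658 CPM in WT IP in BCSP (edgeR, log2 5.003, SE 1.79, unadjusted p = 0.024, adjusted p = 0.422). In both populations the Mettl3cko IP libraries of Hoxd11 were above the WT IP and input libraries, in the same libraries that gave the calls.

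A missing IP count was common in these libraries. Of members with 10 or more counts in both inputs, SSC had 8 of 26 without a count in either Mettl3cko IP library (30.8%), pBCSP 5 of 24 (20.8%) and BCSP 3 of 23 (13.04%). The WT IP libraries had 0 of 27, 0 of 23 and 0 of 24. Over all genes the shares were 12.1%, 8.51% and 9.04% in Mettl3cko and 2.54%, 1.54% and 2.48% in WT. The part of this loss of detection in the ratios was not tested. Single libraries also moved the counts. In SSC, 1 member was called without either WT input library, 4 without either Mettl3cko input library, and 13 or 11 without Mettl3cko IP replicate 1 or 2. In pBCSP, 1 was called without WT input replicate 1 and 11 or 8 without Mettl3cko IP replicate 1 or 2. In BCSP, 1 was called without either WT input library, 6 or 14 without Mettl3cko IP replicate 1 or 2 and 5 without WT IP replicate 1. Hoxa3 in SSC and Hoxa13 in pBCSP held their calls at an unadjusted p in each other setting tried, and lost them at an adjusted p.

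**Figure D5:**
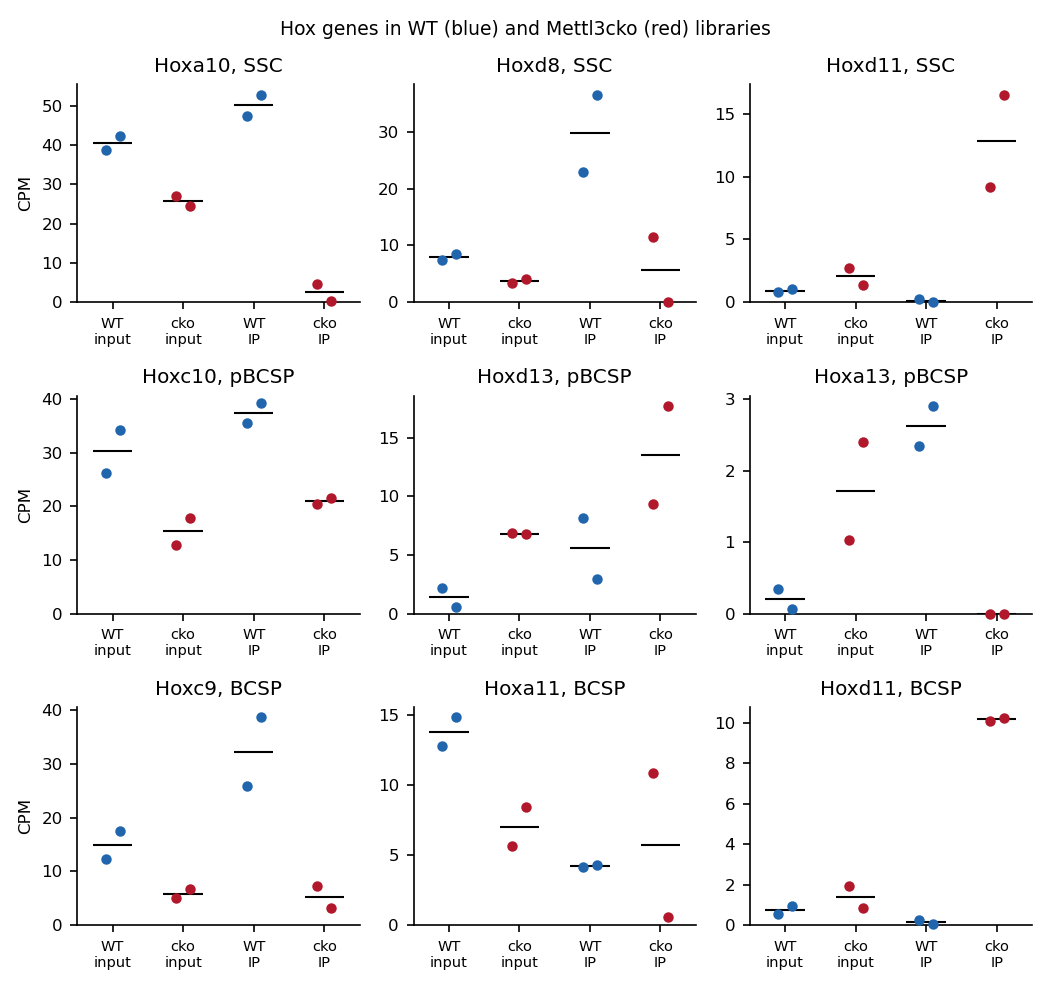
CPM of Hox members in input and IP libraries of WT (blue) and Mettl3cko (red), with a point for each library, in SSC (Hoxa10, Hoxd8 and Hoxd11), pBCSP (Hoxc10, Hoxd13 and Hoxa13) and BCSP (Hoxc9, Hoxa11 and Hoxd11). Hoxa10 in SSC falls from 47.6 and 52.8 CPM in WT IP to 4.68 and 0.307 in Mettl3cko IP, while Hoxd11 stands higher in Mettl3cko IP than in WT.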

How the data were processed

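The authors trimmed reads with fastp 0.20.1, aligned them to GRCm38 with HISAT2 2.2.1 and counted them per gene with featureCounts 2.0.1, and the deposited values are whole-number counts without normalization. The annotation release and the strand setting are not given in the sources used here. Libraries were made with a protocol based on Smart-seq2 and fragmentation by Tn5, from total RNA of sorted cells. A further pair of deposited tables holds the authors' own comparisons of Mettl3KO with WT (fold changes and p-values) and was not used.

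Of 46959 entries, 128 under 2 duplicated date-like names were left out (at most 0.390% of a library's counts). Counts were tested in R 4.3.3 with edgeR 4.0.16 (TMM, default filterByExpr, quasi-likelihood F test, Benjamini-Hochberg over all genes of a fit), with an SE of the absolute log2 fold divided by the square root of F. WT input libraries were fitted together, IP against input within each population, genotype within each population, and ratios as interactions. Members were named library by library for the 15 with the highest mean and for those called, up to 8 per comparison. Intervals of ratios are exact, and both intervals and bounds cover counting error only. Positions and sequences are from GENCODE vM21. The members and gene lists were chosen with earlier results of these data known. The values of 1 member and 1 cofactor are not reported here. The reported fits hold no replicate block. A fit with one was an alternative, given beside the results it changes, since the paper describes a split of each batch of sorted cells between both assays. In a check, deviations of IP and input libraries of a number correlated at 0.0195 to 0.239 in WT and 0.0395 to 0.0464 in Mettl3cko, and at -0.0032 to 0.00546 between WT and Mettl3cko inputs.

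In simulated data for WT SSC against Mettl3cko SSC input with 16100 genes, edgeR recovered 47% of 2-fold and 81% of 4-fold changes at an unadjusted p under 0.05. For the ratio in Mettl3cko against WT SSC (17224 genes) it recovered 10% and 32%, and 0% of either at an adjusted p. In each simulation, the changed genes were drawn at random from all genes of the fit, so recovery at Hox levels was not measured. The alternatives were DESeq2 1.42.0, its size factors, library size alone, no filter, a filter at CPM above 1 in 2 libraries, a replicate block, other thresholds and leaving out each library.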

Additional observations from a re-analysis of the deposited data

How the results depend on the processing

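Of 2575 values of called members under other settings at the same threshold, 2250 kept their direction and their side of the threshold, 324 lost the call and 1 reversed (Hoxa5 in SSC against the other 7, log2 -0.19 without SSC replicate 2 and 2.01 without SSC replicate 1). Leaving out each library in turn gave 15 to 22 members that differed among the WT populations (20 with all libraries), 11 to 16 between stem and progenitor and downstream cells (14), 0 for SSC against pBCSP and for pBCSP against BCSP, 44 to 74 over the 8 populations each against the other 7 (66), 10 to 16 tags (12) and 0 for the ratio among populations. In Mettl3cko against WT, it gave 0 to 7 changed mRNAs in SSC, 0 to 10 in pBCSP and 0 to 3 in BCSP, and 1 to 13, 1 to 11 and 1 to 14 changed ratios. At an unadjusted p under 0.05, 6 members differed between SSC and pBCSP, 5 between pBCSP and BCSP and 102 calls were made for single populations. At an adjusted p, 2 tags remained (Hoxd8 in SSC and HEC), and 0 mRNAs and 0 ratios were called in Mettl3cko SSC, pBCSP and BCSP. DESeq2 called 2 members for SSC against pBCSP, 1 for pBCSP against BCSP and 5 ratios in Mettl3cko BCSP. Without a filter on low counts, 1 member was called for pBCSP against BCSP and 6 mRNAs in Mettl3cko SSC. The replicate block gave 2 changed ratios in Mettl3cko SSC and 0 in BCSP, and 12 tags of which Hoxb8 in SSC and Hoxb5 in BCSP were replaced by Hoxd13 in pBCSP and BCSP. Deviations by replicate number correlated at -0.187 to 0.116 over the 28 pairs of WT populations, and at most at 0.00546 between genotypes. The 2 pairs over 0.1 were SSC with pBCSP (0.115) and pBCSP with BCSP (0.116). Whether libraries of the same number are linked in these populations was not tested. Causes of these changes were not tested, and leaving out a library leaves a group with 1 sample that is assumed to vary like the others. Library size alone moved the median of all genes by up to 0.267 on the log2 scale (BLSP against the other 7) and DESeq2's size factors by up to 0.0746. The 17 members with a mean below 1 CPM rest on few counts in each of 2 libraries a group.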
